A study of Homo sapiens with 18 samples.

Results

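The genes described here are 46 lysosomal genes, chosen by name from the gene count table because they encode the enzymes, activators, membrane proteins and transporters of the lysosome. All 46 were listed among the 33121 genes of the table, and all 46 were among the 13676 genes with enough counts to be tested. By role they are 6 membrane proteins, 5 transporters and channels, 9 proteases, 11 glycosidases, 6 sulfatases or heparan acetyltransferase, 5 lipid hydrolases, 3 activators or lipid carriers and 1 phosphatase. The cells were RPE-1, a human retinal pigment epithelial line immortalized with hTERT and grown in Dulbecco's modified Eagle's medium with fetal bovine serum. The siRNAs were a control (siControl, siLuci in the library names), one that targets MLX (siMlx) and one that targets MLXIP, which encodes MondoA (siMondoA). Each was sequenced untreated and after doxorubicin (DXR), a DNA-damaging drug given at 150 ng/ml for 3 days after 2 days of transfection, with 3 libraries in each of the 6 groups. All of the cells are 1 line, all were transfected, and the names tag untreated libraries D0 and DXR libraries D5 without saying what the tags mean. Any effect of the day of harvest therefore cannot be told apart from that of the drug.

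Lysosomes are acidic compartments in which soluble hydrolases break down proteins, glycans and lipids delivered by endocytosis and autophagy. The hydrolases are made in the endoplasmic reticulum, marked with mannose 6-phosphate in the Golgi and carried to the lysosome by receptors that bind this mark. Heavily glycosylated membrane proteins such as LAMP1 and LAMP2 line the inner face of the limiting membrane, and transporters and channels export the breakdown products. Many lysosomal genes carry E-box sequences near their start sites that the TFEB family of transcription factors binds, and MondoA binds related E-box pairs together with its partner MLX. A raised activity of the lysosomal beta-galactosidase encoded by GLB1 is widely used as a sign of senescent cells.

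Total counts ran from 15503423 to 29219280 per library. MLXIP stood at 63.7 to 72.9 CPM (read counts scaled to a common library size with TMM factors) in the untreated siControl libraries and at 3.34 to 4.57 in the untreated siMondoA libraries. MLX stood at 25.7 to 27.4 CPM with siControl and at 6.79 to 7.12 with siMlx, untreated, and at 47.2 to 52.1 with siMondoA. CDKN1A, the p21 gene and a marker of the DNA damage response, rose with DXR in siControl cells by log2 3.34 (SE 0.08, adjusted p = 6.33e-16). Of 11 markers of retinal pigment epithelium, 3 had enough counts to be tested. OTX2 had 198 to 620 counts per library, while RPE65 had 0 to 13, RLBP1 0 to 4, TYR 0 to 4 and LRAT 0 to 8, so most defining markers of the labelled tissue were near 0. The 11 markers summed to 22.0 to 24.3 CPM in untreated siControl libraries and to 16.0 to 17.2 with DXR. Among them OTX2 fell (log2 -0.63), while TYRP1 rose (log2 3.21) from 0 to 8 counts per untreated siControl library. The 7 blood cell markers, of which 3 were tested, summed to 7.49 to 9.06 CPM and to 3.50 to 3.79 with DXR, with TYROBP at 0 or 1 count. The tested 3 did not move together. CSF1R fell (log2 -2.22), while LYZ (log2 3.23) and PTPRC (log2 0.86) rose from low counts. The 6 fibroblast markers summed to 438 to 508 CPM and to 708 to 812 with DXR, and the 4 epithelial markers to 497 to 687 and to 1118 to 1170. Of the fibroblast markers PDGFRB fell (log2 -0.38), while THY1, COL1A1, COL1A2 and DCN rose. The part of these marker changes in the DXR results below was not tested.

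The promoter windows of the members are shown first because TFEB and MondoA both bind E-boxes. Any part of these motifs in the changes given below was not tested. RefSeq windows on GRCh38.p14, each of 300 bases from 250 before to 50 after an annotated start, were at hand for 33 of the 46 members. Both motifs searched are palindromes and read alike on either strand, and every match of the longer one, TCACGTGA, also holds the shorter one, CACGTG. The shorter motif was present in 10 of the 33 members (30.3%) and in 8.77% of all 27305 genes with such windows. The longer one was present in 6 of the 33 (18.2%) and in 1.18% of all genes. The 6 were CLN3, CTSA, GAA, GALNS, LAMP1 and MCOLN1, and the other members with CACGTG were ARSB, CD63, CTSD and NEU1. The TCACGTGA sites follow with their surroundings, on the strand of the gene, with the motif in capitals. Each distance is that of the first base of the CACGTG inside the site. The LAMP1 and CLN3 sites given at 1 base before a start therefore span that start.
LAMP1, 28 bases before the start (chr13:113297199-113297228, plus strand): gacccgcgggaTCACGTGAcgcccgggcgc
LAMP1, 1 base before the start (chr13:113297226-113297255, plus strand): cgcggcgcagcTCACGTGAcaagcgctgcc
CLN3, 1 base before one of its annotated starts (chr16:28492058-28492087, minus strand): cgcgggtgctgTCACGTGAtccgacaaacg
GALNS, 174 bases before the start (chr16:88857104-88857133, minus strand): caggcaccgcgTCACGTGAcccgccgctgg
GAA, 76 bases before the start (chr17:80101493-80101522, plus strand): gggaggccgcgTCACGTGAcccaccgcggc
GAA, 31 bases before the start (chr17:80101538-80101567, plus strand): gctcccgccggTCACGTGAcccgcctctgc
MCOLN1, 41 bases before the start (chr19:7522571-7522600, plus strand): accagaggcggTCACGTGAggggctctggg
MCOLN1, 14 bases before the start (chr19:7522598-7522627, plus strand): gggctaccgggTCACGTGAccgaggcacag
CTSA, 25 bases before the start (chr20:45891298-45891327, plus strand): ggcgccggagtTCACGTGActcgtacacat

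A match in these windows is a description of the letters and not of binding. Of the 6 members with TCACGTGA 4 rose with DXR in siControl cells, and CLN3 and CTSA did not pass the test. Of the 27 with a window and no such match 18 rose, where 28.1% of all genes tested rose. FUCA1 and IDUA rose more than GAA, and their windows hold neither motif. The whole window of GAA (chr17:80101331-80101630, plus strand) is given because GAA holds 2 sites and was among the members with the largest rise with DXR.
GAA: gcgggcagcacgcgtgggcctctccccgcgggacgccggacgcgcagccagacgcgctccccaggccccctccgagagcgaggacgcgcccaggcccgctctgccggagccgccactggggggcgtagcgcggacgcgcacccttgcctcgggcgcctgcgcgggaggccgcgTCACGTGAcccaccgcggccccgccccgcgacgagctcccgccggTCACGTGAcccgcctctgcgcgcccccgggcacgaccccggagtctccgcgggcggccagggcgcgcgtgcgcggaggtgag

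By level per length (RPKM as deposited, which divides reads by the length of the gene and the depth of the library), the members spanned a wide range in untreated siControl cells. CTSD, the aspartic protease cathepsin D, was the highest at 821 ± 79.2 RPKM (mean ± SD, n = 3 libraries here and below), followed by PSAP, the precursor of the saposins, at 674 ± 27.7. The SDs place the neighbours CTSD and PSAP apart, and CD63, a tetraspanin of late endosomes and lysosomes, came next at 335 ± 4.1. NPC2, CTSB and LAMP1 followed at 149.7 ± 3.2, 148.8 ± 3.2 and 147.7 ± 1.0 RPKM and did not differ beyond their spread. The lowest were MANBA at 3.83 ± 0.60, LGMN at 2.50 ± 0.35, GALC at 1.99 ± 0.20 and IDUA, the alpha-L-iduronidase, at 0.389 ± 0.157 RPKM. On the same scale the 46 genes summed to 3319 to 3496 RPKM in the 3 untreated siControl libraries.

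The first comparison asked how DXR changed lysosomal transcripts in cells with the control siRNA. Of the 46 members, 33 rose (28.1% of all genes tested rose) and 5 fell (28.6% of all genes fell), at a Benjamini-Hochberg adjusted p under 0.05. The median log2 fold change of the members was 0.43, against -0.01 over all genes tested. The 5 members that rose at least 2-fold were FUCA1, GAA, IDUA, LGMN and ARSA, and the 1 that fell at least 2-fold was GUSB. The 5 that fell were GUSB, CTSL, PPT1, CTNS and NPC1. Summed over the 46 genes, the untreated siControl libraries held 8526 to 9089 CPM and the DXR siControl libraries 11060 to 11690, with no overlap. CPM are shares of a library, so RNA per cell was not measured, and fewer cells with a transcript and less of it in each cell cannot be told apart.

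The same comparison was made under each of the other siRNAs. With siMlx, DXR raised 35 members (30.9% of all genes rose) and lowered 4 (31.2%), with a member median of log2 0.51. With siMondoA it raised 26 (26.2%) and lowered 4 (28%), with a member median of 0.30. These 3 comparisons share no library. In all 3 of them 25 members rose, which is 54.3% of the members, beside 17.1% of all genes tested. NPC1, CTSL and GUSB fell in all 3, and CLN3, CTSH, GLA, SGSH and GALC passed the test in none. The 4 that fell with siMlx became 2 when the groups of the comparison were fitted alone, where CTNS and NPC1 did not pass.

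**Figure D1:**
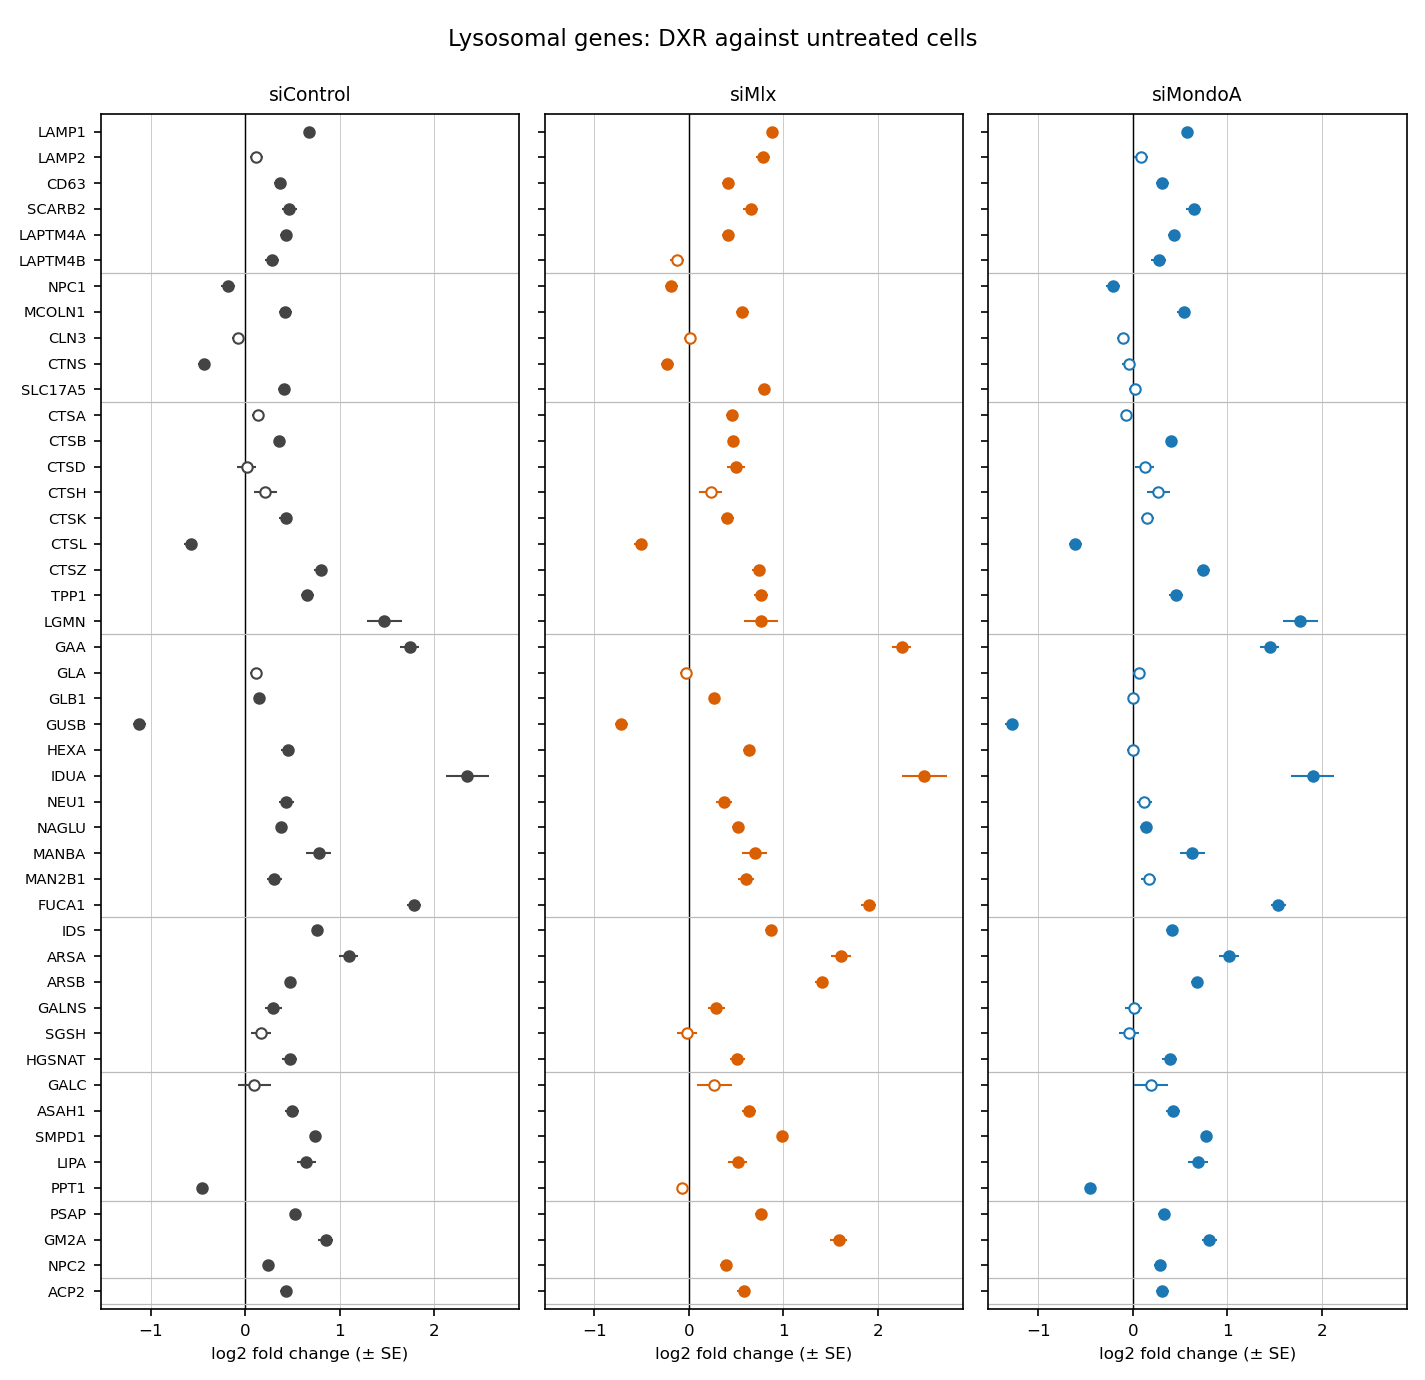
Log2 fold change (x axis, ± SE) of each of the 46 genes (y axis, ordered by role) for DXR against untreated cells with each siRNA, from fits over 3 libraries a group, with filled points past the adjusted p of 0.05. Most points lie right of 0 in each panel, and GUSB, CTSL and NPC1 lie left of it in all 3.

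With siMlx in untreated cells the members leaned the other way. MLX is the shared DNA-binding partner of MondoA and of its paralogue. Against siControl, 6 members rose (24.9% of all genes rose) and 18 fell (23%), with a member median of log2 -0.11 against 0.02 over all genes. ARSB, GM2A and LAMP2 fell at least 2-fold. Other genes moved with siMlx untreated too. The epithelial markers summed to 324 to 421 CPM, below siControl, and both of the 2 tested fell, among them KRT18 by log2 0.99. Of the 5 fibroblast markers tested 1 rose and 1 fell, PDGFRB by log2 0.97, and CDKN1A rose by log2 1.28. Their part in the siMlx results was not tested. After DXR, 8 members rose (14%) and 7 fell (16.2%), with a member median of 0.06 against 0.01. All 7 that fell after DXR, ACP2, ARSB, GM2A, LAMP2, LIPA, PPT1 and SCARB2, were also among the 18 that fell untreated. Of the 6 and 8 that rose, CTSZ, LAPTM4B and NPC1 were shared, which is 3 of 6 and 3 of 8. How many of all genes tested were called alike in both conditions was not counted. These overlaps are therefore not shown to be particular to the members. LAPTM4B was at 45.1 to 49.5 CPM with siControl and 49.5 to 58.6 with siMlx after DXR, and these ranges met. The calls for CTSZ and LAPTM4B after DXR were lost in several alternatives, with adjusted p up to 0.256 and 0.187. GUSB was lower untreated (log2 -0.19) and higher after DXR (0.21), and each of these calls was also lost in several alternatives, with adjusted p up to 0.0914 and 0.11. Under upper-quartile scaling the split over all genes tested after DXR turned from 46.2% higher of those called to 56.2%. The 8 that rose became 3 without siControl DXR replicate 2 or without siMlx DXR replicate 1, and 5 without siMlx DXR replicate 3.

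With siMondoA the changes in the members were small. In untreated cells 13 rose (23.3% of all genes rose) and 6 fell (23.3%), with a member median of log2 0.09 against 0.02 over all genes, and no member changed by 2-fold. CDKN1A rose with siMondoA untreated by log2 1.13, and MKI67, a marker of dividing cells, fell by 1.37. Of the 5 fibroblast markers tested 1 rose and 2 fell, THY1 by log2 0.66 and PDGFRB by 0.71, and of the 2 epithelial markers KRT18 rose by log2 0.36. Their part in the siMondoA results was not tested. After DXR 5 rose (10.9%) and 4 fell (13.9%), with a member median of 0.02 against 0.01. In untreated cells the members' share that rose, 28.3%, was near the 23.3% of all genes, and the share that fell, 13%, was below 23.3%. After DXR the shares were 10.9% and 8.7%. Of the 19 calls in untreated cells, 8 were lost in at least 1 alternative, so these shares are not read as a lean of the members. ACP2, CLN3, NPC1 and SGSH rose in both conditions, which is 4 of 13 and 4 of 5, and CTSB and GUSB fell in both, which is 2 of 6 and 2 of 4. For siMondoA too, the overlap of calls over all genes tested was not counted. The 5 that rose after DXR became 2 without siControl DXR replicate 2, and the 6 that fell untreated became 4 without siMondoA untreated replicate 3.

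**Figure D2:**
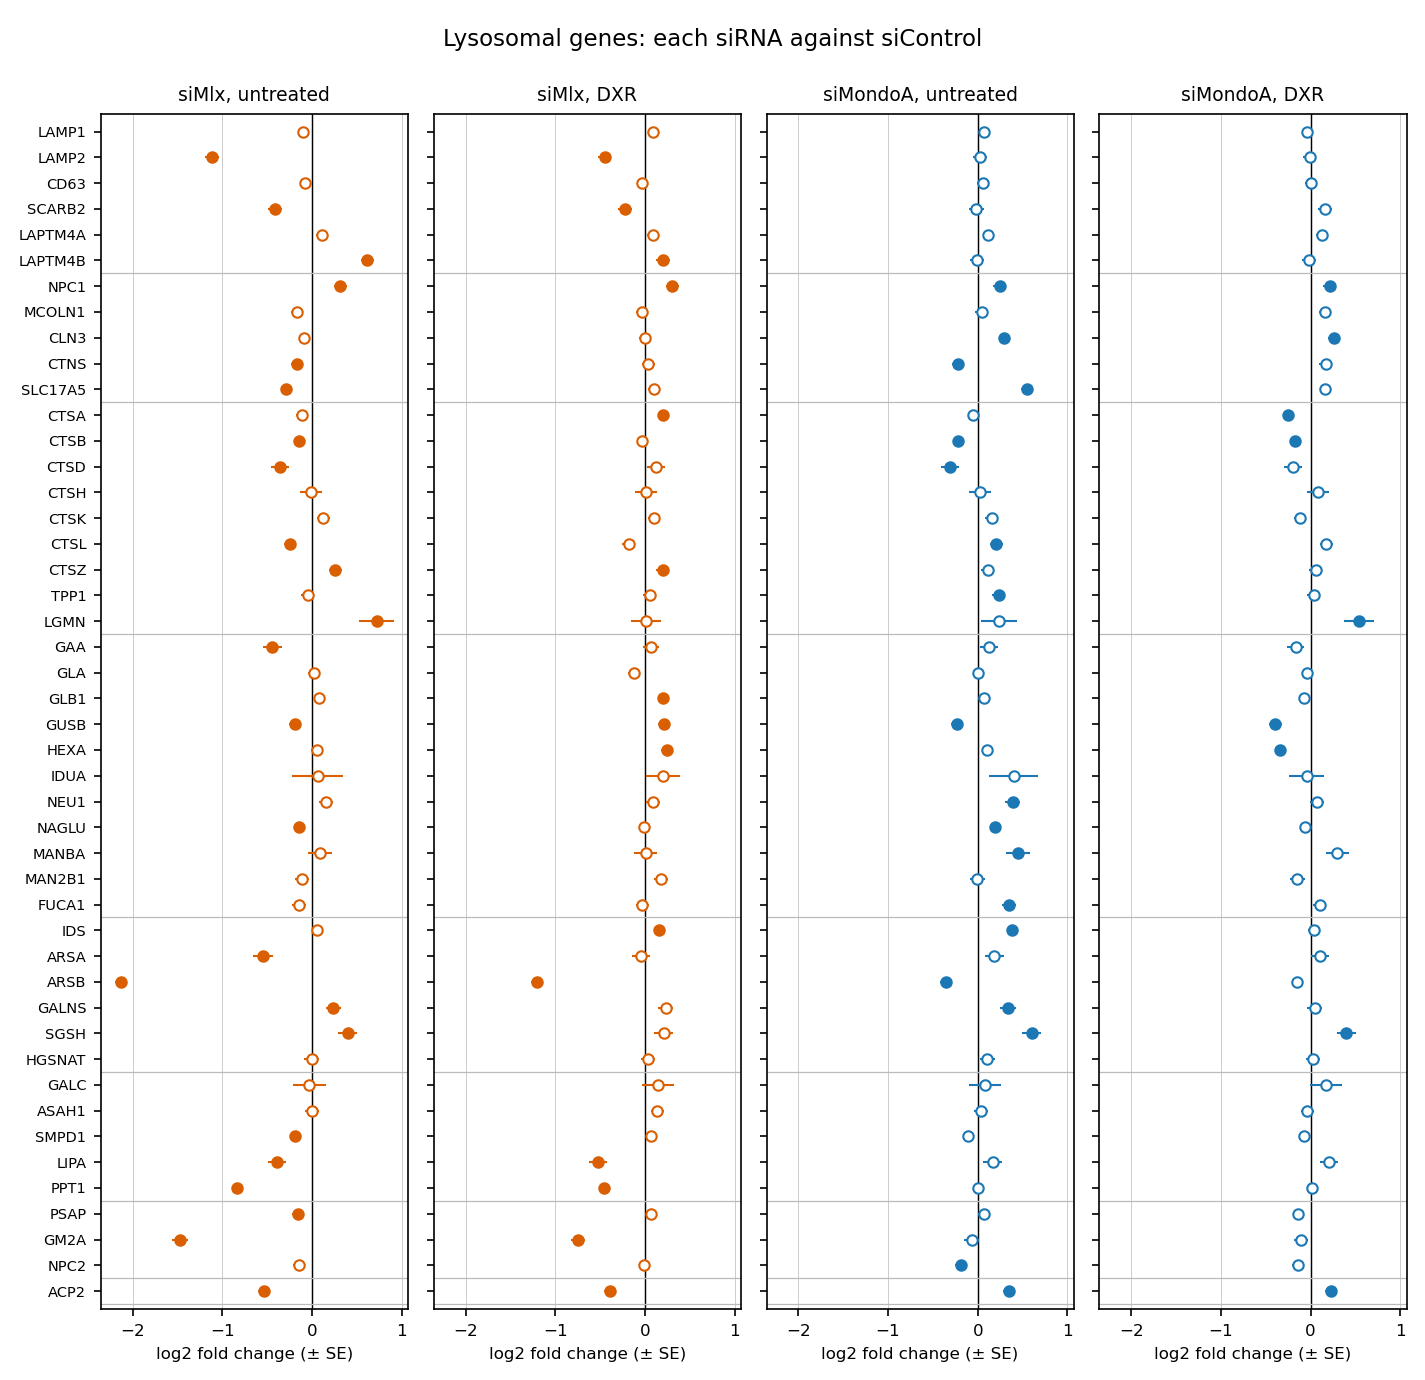
Log2 fold change (x axis, ± SE) of each of the 46 genes (y axis, ordered by role) for siMlx and siMondoA against siControl, untreated and after DXR, 3 libraries a group, with filled points past the adjusted p of 0.05. ARSB and GM2A lie farthest left with siMlx in both conditions, and with siMondoA the point farthest from 0 is SGSH in untreated cells, at log2 0.60.

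Of the 6 membrane proteins, 5 rose with DXR in siControl cells and none fell. For this count and those of the other roles below, 28.1% of all genes tested rose and 28.6% fell. LAMP1 (chromosome 13, 113297241 to 113323672, GRCh38) was at 364, 371 and 361 CPM in untreated siControl libraries and at 579, 579 and 592 after DXR. The groups did not overlap, and LAMP1 rose by log2 0.68 (SE 0.05, adjusted p = 3.08e-09). It did not pass the test with either siRNA in either condition, with log2 values between -0.11 and 0.10. CD63 was at 665, 677 and 672 CPM untreated and at 811, 929 and 859 after DXR, all above the untreated libraries, and it rose by log2 0.37 (SE 0.07, adjusted p = 1.01e-04).

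LAMP2 (chromosome X, 120427827 to 120469365) encodes the other major glycoprotein of the lysosomal membrane, which takes part in fusion with autophagosomes and, in one isoform, in chaperone-mediated autophagy. It was at 321, 309 and 308 CPM with siControl, at 142, 143 and 148 with siMlx and at 335, 306 and 314 with siMondoA, untreated. The siMlx libraries lay below all libraries of both other groups. LAMP2 fell with siMlx by log2 1.11 (SE 0.07, adjusted p = 2.52e-10), to 46.2% of the control level. With DXR it reached 371, 341 and 308 CPM with siControl and at 267, 251 and 229 with siMlx. The groups again did not overlap, and LAMP2 fell by log2 0.45 (SE 0.07, adjusted p = 9.83e-05). With siMondoA it stood at log2 0.02 and -0.01 against siControl and passed the test in neither condition. It was also the 1 membrane protein that did not pass the test with DXR in siControl cells (log2 0.12, adjusted p = 0.169).

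SCARB2, also called LIMP-2, carries glucocerebrosidase to the lysosome. It was at 402 to 469 CPM with siControl and at 316 to 337 with siMlx untreated, without overlap, and fell by log2 0.41 (SE 0.08, adjusted p = 2.64e-04). After DXR its fall with siMlx was log2 0.22 (SE 0.08, adjusted p = 0.0391). Without siControl DXR replicate 1 that value was -0.14 with an adjusted p of 0.235, and it also missed the threshold without siControl DXR replicate 3 (-0.24) or siMlx DXR replicate 2 (-0.21) or 3 (-0.18). LAPTM4B, a small membrane protein that binds ceramide and affects growth signalling, went the other way. It was at 40.7, 39.6 and 37.2 CPM with siControl and at 61.7, 59.9 and 58.8 with siMlx untreated, all higher, and rose by log2 0.62 (SE 0.08, adjusted p = 1.45e-06). Its relative LAPTM4A rose with DXR (log2 0.43) and passed the test with neither siRNA.

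Among the 5 transporters and channels, MCOLN1 and SLC17A5 rose with DXR in siControl cells, and CTNS and NPC1 fell. MCOLN1 encodes the calcium-releasing channel TRPML1. It was at 25.3, 27.1 and 25.5 CPM untreated and at 35.4, 34.3 and 34.8 after DXR, with no overlap, and rose by log2 0.43 (SE 0.07, adjusted p = 2.25e-05). Neither siRNA moved it past the test in either condition. CTNS, the cystine exporter cystinosin, was at 18.5, 19.8 and 19.9 CPM untreated and at 14.8, 13.9 and 14.3 after DXR. All DXR libraries were lower, and it fell by log2 0.44 (SE 0.07, adjusted p = 1.82e-05).

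SLC17A5 (chromosome 6, 73593379 to 73654155) encodes sialin, which exports sialic acid. It was at 78.4, 70.8 and 68.6 CPM with siControl, at 64.4, 56.1 and 58.3 with siMlx and at 109.9, 106 and 103 with siMondoA, untreated. The 3 groups did not overlap and lay in the order siMlx, siControl, siMondoA. SLC17A5 rose with siMondoA by log2 0.55 (SE 0.06, adjusted p = 6.24e-07), and it fell with siMlx by log2 0.29 (SE 0.06, adjusted p = 1.01e-03). After DXR the 9 libraries lay between 91.6 and 113 CPM, and neither siRNA passed the test.

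CLN3, a membrane protein mutated in juvenile Batten disease, was at 31.3, 31.8 and 30.9 CPM with siControl and at 41.1, 37.0 and 37.0 with siMondoA untreated. All siMondoA libraries were higher, and it rose by log2 0.29 (SE 0.06, adjusted p = 5.90e-04). In DXR libraries it was at 28.4 to 30.5 CPM with siControl and at 33.7 to 38.2 with siMondoA, and rose by log2 0.26 (SE 0.06, adjusted p = 4.46e-03). NPC1, which moves cholesterol out of the lysosome, rose with both siRNAs in both conditions, by log2 0.21 to 0.31, and these comparisons share their siControl libraries within a condition. The rise with siMondoA missed the threshold without siControl untreated replicate 3 (0.20) or siMondoA untreated replicate 2 (0.21), and after DXR without siControl DXR replicate 2 (0.20) or 3 (0.18) or siMondoA DXR replicate 1 (0.17) or 2 (0.23). Its falls with DXR, of log2 0.18, 0.19 and 0.21 with siControl, siMlx and siMondoA, missed it in several alternatives, with adjusted p up to 0.166, 0.180 and 0.0977. NPC1 was at 59.8, 58.6 and 53.7 CPM untreated and at 54.2, 49.9 and 48.0 after DXR with siControl, and these ranges overlapped.

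Of the 9 proteases, 5 rose with DXR in siControl cells and 1 fell. CTSB, a cysteine cathepsin, was at 664, 652 and 667 CPM untreated and at 861, 844 and 836 after DXR, all higher, and rose by log2 0.36 (SE 0.05, adjusted p = 7.73e-06). CTSZ, cathepsin Z, rose by log2 0.80 (SE 0.07, adjusted p = 1.36e-08) and TPP1, the tripeptidyl peptidase mutated in a form of Batten disease, by log2 0.66. LGMN, the asparaginyl endopeptidase legumain, was at 5.62, 4.48 and 5.77 CPM untreated and at 16.2, 12.2 and 16.1 after DXR, and rose by log2 1.47 (SE 0.18, adjusted p = 1.28e-06).

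CTSL, cathepsin L, was the protease that fell. It was at 77.7, 76.5 and 89.4 CPM untreated and at 51.2, 56.1 and 55.9 after DXR, all lower, and fell by log2 0.58 (SE 0.07, adjusted p = 1.00e-06). It fell under the other siRNAs too, by log2 0.51 with siMlx and 0.61 with siMondoA. CTSD, the member with the highest level, was at 1849, 1741 and 1503 CPM untreated and at 1826, 1749 and 1570 after DXR with siControl. These ranges overlapped almost wholly (log2 0.01, adjusted p = 0.910).

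In untreated cells CTSD was at 1514, 1353 and 1113 CPM with siMlx, a fall of log2 0.36 (SE 0.10, adjusted p = 6.14e-03), and the siMlx and siControl ranges overlapped. It was at 1439, 1449 and 1227 CPM with siMondoA, all below siControl, a fall of log2 0.31 (SE 0.10, adjusted p = 0.0159). This was -0.24 without siControl untreated replicate 1 (adjusted p = 0.0851) and -0.23 without siMondoA untreated replicate 3 (adjusted p = 0.0847). CTSB fell with siMondoA in both conditions, from 652 to 667 to 553 to 584 CPM untreated (log2 -0.22, adjusted p = 1.60e-03) and from 836 to 861 to 715 to 781 after DXR (log2 -0.17, adjusted p = 0.0183). The second value missed the threshold without siControl DXR replicate 1 (-0.16, adjusted p = 0.0611) or siMondoA DXR replicate 1 (-0.14, adjusted p = 0.0925). CTSA, the protective protein that stabilizes beta-galactosidase and neuraminidase, was at 188, 188 and 191 CPM with siControl after DXR. It was at 222, 211 and 220.3 with siMlx and at 144, 164 and 168 with siMondoA, so that the 3 groups did not overlap. CTSA rose with siMlx by log2 0.20 (adjusted p = 0.0153) and fell with siMondoA by log2 0.25 (adjusted p = 5.03e-03). The rise missed the threshold without siControl DXR replicate 2 (0.19, adjusted p = 0.0548) or siMlx DXR replicate 1 (0.19, adjusted p = 0.0512). LGMN rose with siMondoA after DXR by log2 0.54 (SE 0.17, adjusted p = 0.0226), with libraries at 18.7, 16.3 and 29.6 CPM. Without the library at 29.6, siMondoA DXR replicate 3, its value was 0.24 with an adjusted p of 0.224, and without siControl DXR replicate 2 it was 0.41 with an adjusted p of 0.118.

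The glycosidases held the largest rises with DXR. Of 11, 9 rose and 1 fell in siControl cells. FUCA1 (chromosome 1, 23845077 to 23868294), which removes fucose from glycans and is a known p53 target, was at 25.7, 25.3 and 19.9 CPM untreated and at 84.9, 78.9 and 80.8 after DXR. The DXR libraries were all above the untreated ones, and FUCA1 rose 3.46-fold (log2 1.79, SE 0.08, adjusted p = 2.16e-12). GAA (chromosome 17, 80101556 to 80119879), the acid alpha-glucosidase that degrades glycogen, was at 28.0, 24.2 and 25.6 CPM untreated and at 83.8, 87.0 and 89.9 after DXR. It rose 3.34-fold (log2 1.74, SE 0.10, adjusted p = 5.61e-11).

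IDUA was at 1.10, 1.68 and 0.721 CPM untreated, from 20 to 33 counts per library, and at 6.21, 5.37 and 5.75 after DXR, from 105 to 122 counts. It rose 5.10-fold (log2 2.35, SE 0.23, adjusted p = 5.00e-08). IDUA shares 534 exonic bases with SLC26A1 on the other strand, and the strand setting of the counting is not known. SLC26A1 was at 3.05 CPM untreated and at 1.59 after DXR, the opposite direction.

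GUSB (chromosome 7, 65960684 to 65982314), the beta-glucuronidase often used as a reference gene, was the glycosidase that fell. It was at 47.7, 48.7 and 52.1 CPM untreated and at 22.8, 22.0 and 23.6 after DXR with siControl, 2.17-fold lower (log2 -1.12, SE 0.07, adjusted p = 1.06e-10). With siMondoA it was at 39.5, 43.5 and 43.4 CPM untreated and at 15.8, 17.2 and 19.0 after DXR, lower than every siControl library of the same condition. It fell with siMondoA by log2 0.23 untreated (adjusted p = 5.81e-03) and 0.39 after DXR (adjusted p = 4.16e-04). GUSB has listed pseudogene copies that can share its reads, so its counts are uncertain.

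GLB1, the lysosomal beta-galactosidase, moved little. It was at 107, 109.8 and 102 CPM untreated and at 123, 116 and 114 after DXR with siControl. The DXR libraries were all above the untreated ones, by log2 0.14 (SE 0.05, adjusted p = 0.0271), and the threshold was missed without siControl DXR replicate 1 (0.11, adjusted p = 0.122) or 2 (0.14, adjusted p = 0.0585) or siControl untreated replicate 3 (0.11, adjusted p = 0.117). With siMlx after DXR GLB1 was at 141, 132 and 131 CPM, all above siControl, and rose by log2 0.20 (SE 0.05, adjusted p = 7.49e-03). HEXA, the alpha subunit of beta-hexosaminidase, was at 93.6, 88.5 and 95.1 CPM untreated and at 117, 127 and 134 after DXR with siControl. With DXR it reached 139, 154 and 157 CPM with siMlx and at 92.1, 102 and 105 with siMondoA, so that the 3 groups did not overlap. HEXA rose with siMlx by log2 0.25 (adjusted p = 6.49e-03) and fell with siMondoA by log2 0.34 (adjusted p = 6.67e-04), and it overlaps the antisense gene HEXA-AS1, which was under 1 CPM in each group's mean. In untreated cells NEU1, FUCA1, MANBA and NAGLU rose with siMondoA, by log2 0.39, 0.35, 0.44 and 0.19. The call for MANBA was lost without siControl untreated replicate 3 (0.31), and that for NAGLU without the same library (0.14) or siMondoA untreated replicate 1 (0.16).

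**Figure D3:**
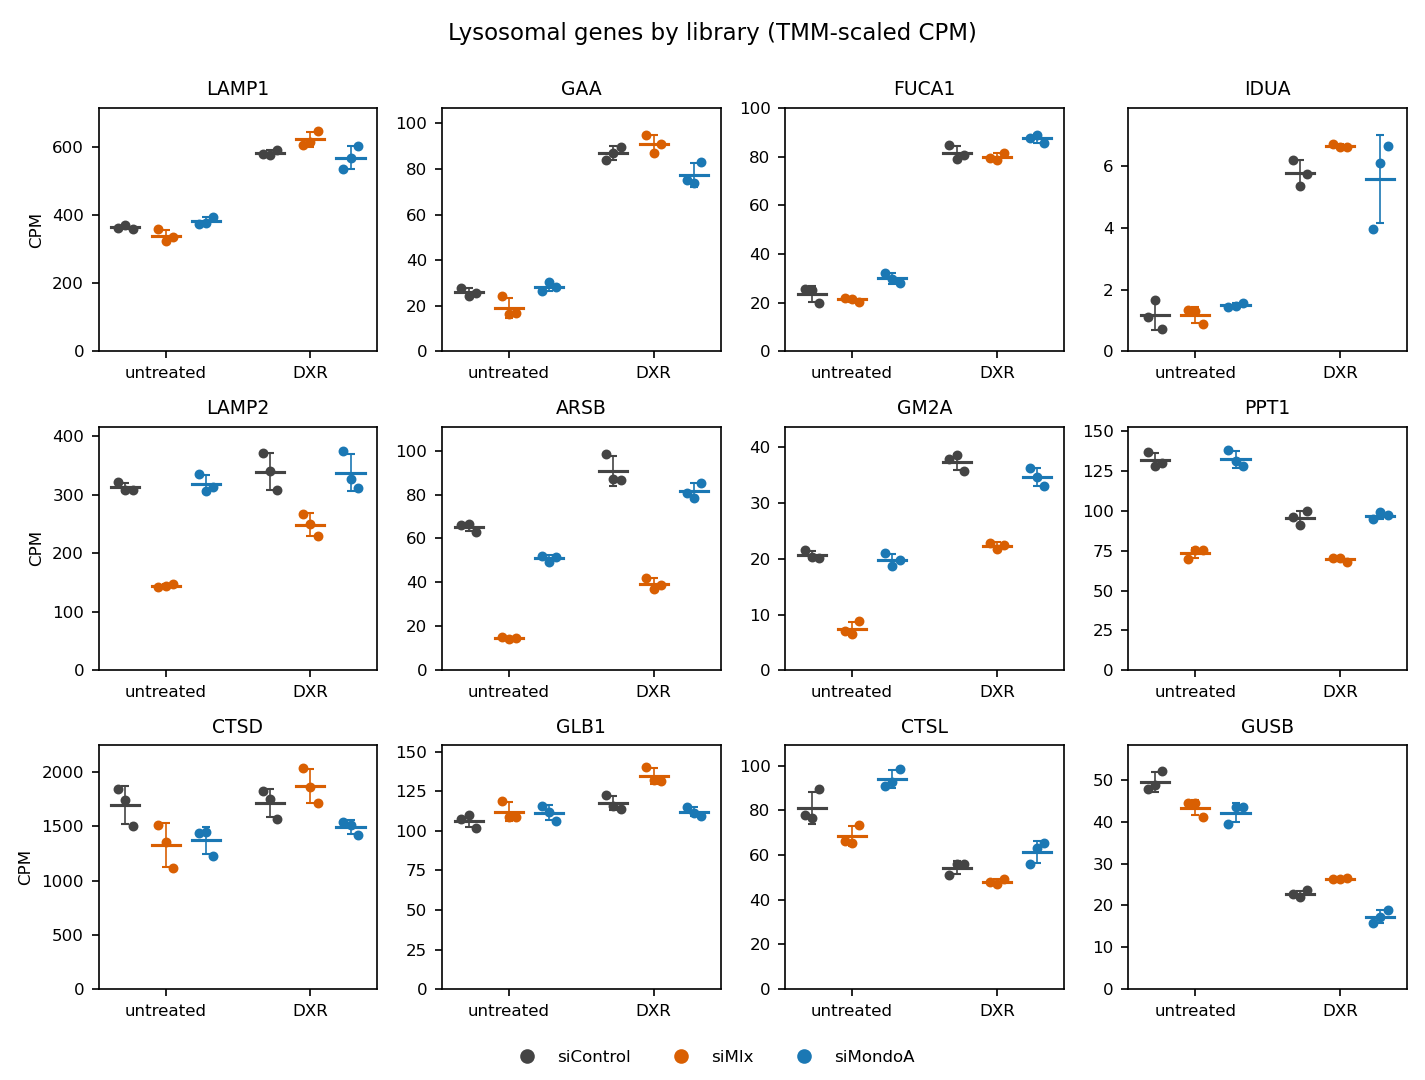
CPM of selected members in each of the 18 libraries (points, coloured by siRNA, y axis in CPM from 0), with the group mean as a line and the SD as an error bar. LAMP2 and ARSB are lowest in the siMlx groups, while LAMP1 and GAA are higher in every DXR library than in every untreated one.

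Of the 6 genes that encode sulfatases or the heparan acetyltransferase, 5 rose with DXR in siControl cells and none fell. ARSB (chromosome 5, 78777209 to 78986087), which removes sulfate from dermatan and chondroitin sulfate, had the largest difference of any member with an siRNA. It was at 65.9, 66.4 and 62.9 CPM with siControl, at 15.4, 14.4 and 14.8 with siMlx and at 52.1, 49.1 and 51.5 with siMondoA, untreated. The 3 groups did not overlap. ARSB fell with siMlx by log2 2.13 (SE 0.07, adjusted p = 3.88e-15), to 22.8% of the control level, and with siMondoA by log2 0.35 (SE 0.06, adjusted p = 7.82e-05).

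After DXR ARSB was at 98.5, 87.0 and 86.6 CPM with siControl and at 42.2, 37.1 and 39.0 with siMlx, to 43.4% of the control level (log2 -1.20, SE 0.06, adjusted p = 2.21e-11). With siMondoA after DXR it was at 80.8, 78.6 and 85.4 CPM, all below siControl, but did not pass the test (log2 -0.15, adjusted p = 0.0685). ARSA, the arylsulfatase that degrades sulfatides, was at 23.3, 22.0 and 20.4 CPM untreated and at 48.3, 45.4 and 47.0 after DXR with siControl. It rose 2.14-fold (log2 1.10, SE 0.10, adjusted p = 3.36e-08), and untreated it fell with siMlx by log2 0.55 (SE 0.11, adjusted p = 4.01e-04).

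IDS, the iduronate sulfatase, was at 260.4, 246 and 232 CPM with siControl and at 326, 326 and 314 with siMondoA untreated, all higher. It rose with siMondoA by log2 0.39 (SE 0.06, adjusted p = 2.51e-05), and with DXR in siControl cells by log2 0.76 (SE 0.06, adjusted p = 3.63e-09), to 396 to 443 CPM. SGSH, the heparan sulfamidase, was at 15.2, 16.3 and 19.9 CPM with siControl and at 24.2, 23.6 and 30.4 with siMondoA untreated, and rose by log2 0.60 (SE 0.11, adjusted p = 1.02e-04). With DXR it was at 18.2 to 19.8 CPM with siControl and at 24.2 to 26.0 with siMondoA, a rise of log2 0.40 (SE 0.11, adjusted p = 9.69e-03). GALNS rose in untreated cells with siMondoA by log2 0.34 and with siMlx by log2 0.24, and the second call was lost without siMlx untreated replicate 1 (0.14, adjusted p = 0.216) or siControl untreated replicate 2 (0.21) or 3 (0.23). HGSNAT, the acetyltransferase of heparan sulfate breakdown, passed the test with DXR only among the 5 main comparisons (log2 0.47, adjusted p = 4.21e-05).

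Among the 5 lipid hydrolases, SMPD1, LIPA and ASAH1 rose with DXR in siControl cells and PPT1 fell. SMPD1, the acid sphingomyelinase, was at 124, 134 and 119 CPM untreated and at 216, 208 and 203 after DXR, all higher, and rose by log2 0.74 (SE 0.05, adjusted p = 1.12e-09). PPT1 (chromosome 1, 40071461 to 40097727) removes palmitate from proteins. It was at 137, 128 and 130.3 CPM with siControl, at 69.9, 75.4 and 75.4 with siMlx and at 138, 131 and 128 with siMondoA, untreated. The siMlx libraries lay below all others, and PPT1 fell by log2 0.84 (SE 0.05, adjusted p = 5.68e-11). With DXR it was at 96.3, 91.4 and 99.6 CPM with siControl and at 70.6, 70.4 and 68.1 with siMlx, a fall with siMlx of log2 0.46 (SE 0.05, adjusted p = 1.15e-06). DXR lowered PPT1 with siControl by log2 0.46 (SE 0.05, adjusted p = 2.47e-07), and with siMlx its value for DXR was -0.08 (SE 0.05, adjusted p = 0.2). PPT1 shares 1189 exonic bases with CAP1 on the other strand. CAP1 had means of 600 CPM under siControl and 584 under siMlx, untreated, and did not pass the test (log2 -0.04, adjusted p = 0.673).

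LIPA, the acid lipase of cholesteryl esters and triglycerides, was at 206, 179.6 and 149.8 CPM with siControl and at 143, 134 and 132 with siMlx untreated. With DXR it was at 296, 247 and 294 CPM with siControl and at 191, 197 and 195 with siMlx. The siMlx libraries were lower in both conditions, by log2 0.39 untreated (SE 0.10, adjusted p = 4.23e-03) and by 0.52 after DXR (SE 0.10, adjusted p = 6.53e-04). LIPA shares 65 exonic bases with IFIT2, an interferon-induced gene on the other strand, whose mean was 23.3 CPM under siControl and 3.20 under siMlx, untreated. After DXR the IFIT2 means were 271 CPM under siControl, 22.5 under siMlx and 1210 under siMondoA. Its part in the LIPA counts was not tested.

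All 3 activators and lipid carriers rose with DXR in siControl cells. GM2A (chromosome 5, 151212150 to 151270440), the activator that presents the ganglioside GM2 to beta-hexosaminidase A, was at 21.5, 20.3 and 20.2 CPM with siControl and at 7.01, 6.51 and 8.81 with siMlx untreated. The siMlx libraries were all lower, and GM2A fell by log2 1.47 (SE 0.09, adjusted p = 7.23e-11), to 36.0% of the control level. With DXR it was at 37.8, 38.6 and 35.8 CPM with siControl and at 22.9, 21.7 and 22.5 with siMlx, a fall of log2 0.74 (SE 0.08, adjusted p = 6.03e-07). With siMondoA it was at 18.7 to 21.0 CPM untreated and 33.0 to 36.3 after DXR, and passed the test in neither condition. DXR raised GM2A in siControl cells by log2 0.85 (SE 0.08, adjusted p = 2.43e-08).

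PSAP was at 1865, 1798 and 1913 CPM untreated and at 2723, 2768 and 2574 after DXR with siControl, and rose by log2 0.53 (SE 0.06, adjusted p = 5.22e-07). NPC2, the soluble partner of NPC1, rose by log2 0.25 (SE 0.06, adjusted p = 2.39e-03). ACP2, the lysosomal acid phosphatase, parted the siRNAs in both conditions. It was at 88.5, 105 and 87.7 CPM with siControl, at 66.1, 64.8 and 63.2 with siMlx and at 127, 118 and 111 with siMondoA, untreated. With DXR it was at 129, 124 and 127 CPM with siControl, at 95.8, 93.9 and 100.3 with siMlx and at 148, 141 and 154 with siMondoA. In each condition the 3 groups did not overlap. ACP2 fell with siMlx by log2 0.53 (adjusted p = 1.79e-06) and 0.39 (adjusted p = 1.52e-04), and rose with siMondoA by log2 0.34 (adjusted p = 2.35e-04) and 0.23 (adjusted p = 0.0147). The rise after DXR did not pass without siControl DXR replicate 2 (0.21, adjusted p = 0.0553) or siMondoA DXR replicate 3 (0.19, adjusted p = 0.0664).

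**Figure D4:**
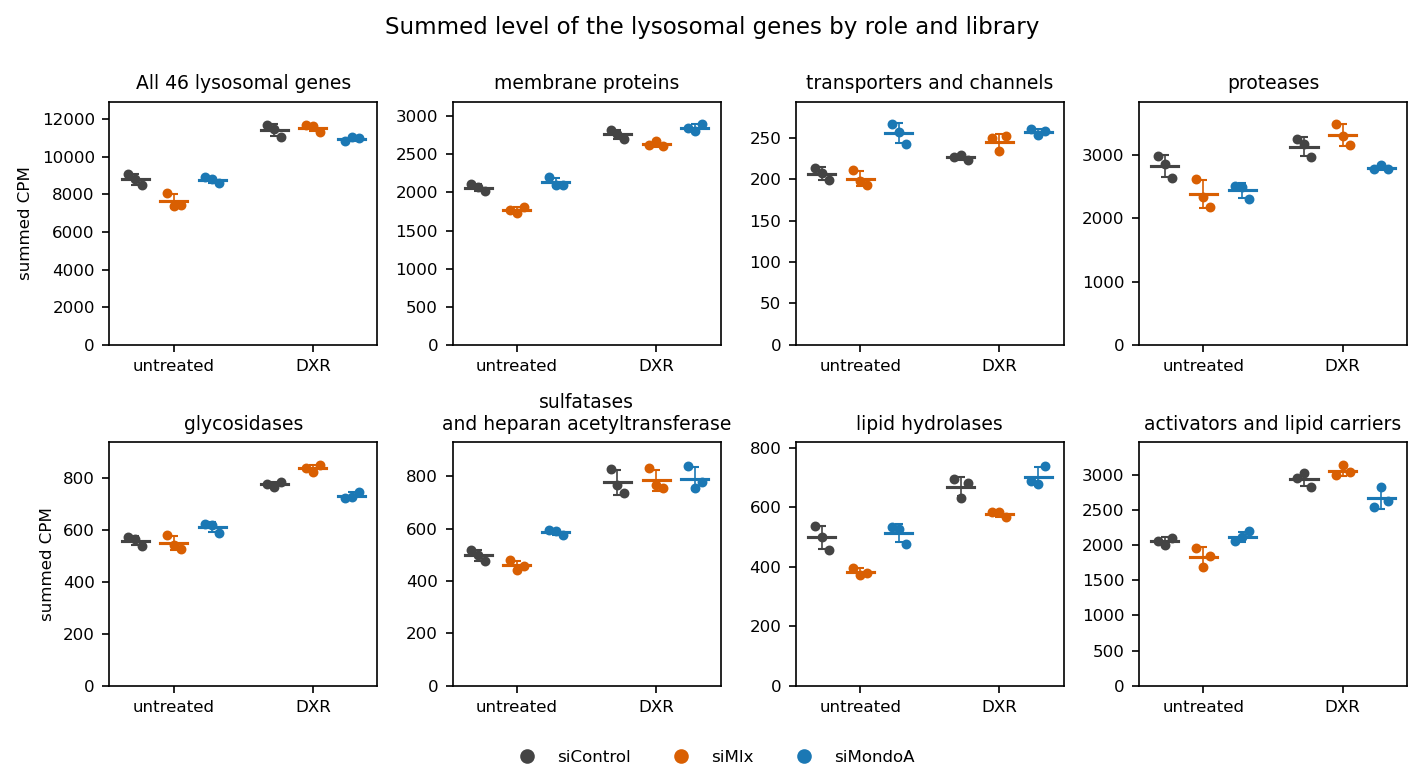
Summed CPM (y axis, from 0) of all 46 genes and of each role except the single phosphatase (panels) in each of the 18 libraries (points), by group, with mean and SD. Over all 46 genes the untreated siMlx libraries sum to 7384 to 8095 CPM, below the 8526 to 9089 of siControl, and all DXR libraries sum to 10830 or more.

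A direct comparison of the siRNAs, which uses no siControl library, was made in each condition. In untreated cells 21 members were higher with siMondoA than with siMlx (28.5% of all genes were higher) and 2 were lower (30.4%), with a member median of log2 0.15. ARSB was higher with siMondoA 3.42-fold, GM2A 2.65-fold, LAMP2 2.20-fold and ACP2 1.84-fold, and LAPTM4B and LGMN were lower. The 2 lower members became 1 without siMlx untreated replicate 1 or 3 or without siMondoA untreated replicate 1 or 2. After DXR 11 members were higher (18.9%) and 11 lower (20%), with a median of log2 -0.01. The lower ones included GUSB at log2 -0.61, HEXA at -0.58 and CTSA at -0.45, and ARSB stayed higher at log2 1.05 (SE 0.06, adjusted p = 8.44e-11). The 11 lower members became 7 without siMlx DXR replicate 2.

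Whether an siRNA changed the response to DXR was tested as an interaction. Any difference in harvest day, and so in time since transfection, cannot be told apart from the drug here either. For siMlx, 11 members had a positive interaction (6.43% of all genes) and 1 a negative one (5.81%), with a member median of log2 0.13. ARSB rose with DXR by log2 0.48 with siControl and by 1.41 with siMlx, a difference of 0.93 (SE 0.09, adjusted p = 1.76e-06). LAMP2 stood at log2 0.12 and 0.79 in the same order, a difference of 0.67 (SE 0.10, adjusted p = 2.91e-04), and GM2A at 0.85 and 1.58, a difference of 0.73 (SE 0.12, adjusted p = 4.62e-04). These 3 genes are the ones that fell most with siMlx untreated, and a positive interaction is the same measurement as a smaller fall with siMlx after DXR than before. The 11 became 7 without siControl untreated replicate 1 and 6 without siMlx untreated replicate 2 or 3. For siMondoA, 1 member had a positive interaction (5.84% of all genes) and 3 a negative one (4.28%), with a median of log2 -0.06. The 1 was CTNS, at log2 0.39, and the 3 were HEXA at -0.45, SLC17A5 at -0.39 and IDS at -0.35. The 3 became 5 without siMondoA untreated replicate 3. Of all genes called in the siMondoA interaction, 57.7% were higher, and 45.4% under upper-quartile scaling.

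Other lysosomal genes were counted from lists outside the 46. Of 16 subunits of the V-ATPase, the proton pump that acidifies the lysosome, 13 rose and 2 fell with DXR in siControl cells, where 28.1% of all genes rose and 28.6% fell. ATP6AP2, an accessory subunit, went from 90.5 to 98.3 CPM to 173 to 181 (log2 0.90, SE 0.05, adjusted p = 5.32e-11). Of 10 genes of enzyme delivery 5 rose and 1 fell, of 14 tested HOPS and Ragulator genes, which serve fusion and nutrient sensing, 6 rose and 2 fell, and of 20 further lysosomal genes 11 rose and 3 fell. GGH, the gamma-glutamyl hydrolase, fell by log2 1.73 (SE 0.09, adjusted p = 1.42e-11), more than any of the 46 members. Of the TFEB family, TFEB rose by log2 0.57 (SE 0.11, adjusted p = 1.38e-04) and TFEC, at 0.577 to 1.17 CPM in untreated siControl libraries, by log2 1.69 (SE 0.24, adjusted p = 5.69e-06).

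With siMlx untreated, where 24.9% of all genes rose and 23% fell, none of the 16 V-ATPase genes rose and 6 fell. Of the 10 delivery genes 4 rose and 5 fell, of the 14 HOPS and Ragulator genes 3 rose and 6 fell, and of the 20 further lysosomal genes 2 rose and 8 fell. MITF, the TFEB relative best known from pigment cells, was at 32.1, 31.4 and 34.1 CPM with siControl and at 17.5, 19.1 and 21.4 with siMlx, a fall of log2 0.75 (SE 0.08, adjusted p = 4.57e-07). It was lower after DXR too, by log2 0.69 (adjusted p = 3.55e-06), and stood at log2 0.04 and -0.08 with siMondoA. TFEB was also lower with siMlx untreated (log2 -0.29, SE 0.11, adjusted p = 0.041) and did not pass the test after DXR (log2 -0.007). TFE3 and TFEC passed the test with siMlx in neither condition.

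With siMondoA untreated, 23.3% of all genes rose and 23.3% fell. Of the 16 V-ATPase genes 7 rose and 2 fell, of the 10 delivery genes 1 rose and 5 fell, of the 14 HOPS and Ragulator genes 9 rose and none fell, and of the 20 further lysosomal genes 8 rose and 1 fell. GNPTAB, which encodes the catalytic subunits of the phosphotransferase that starts the mannose 6-phosphate mark, was at 66.0, 61.8 and 62.2 CPM with siControl and at 13.2, 14.9 and 15.2 with siMondoA. All siMondoA libraries were lower, and GNPTAB fell by log2 2.13 (SE 0.08, adjusted p = 9.70e-14), a larger change than that of any of the 46 members with siMondoA. After DXR it was at 90.9 to 97.4 CPM with siControl and at 24.6 to 29.6 with siMondoA, a fall of log2 1.80 (SE 0.07, adjusted p = 1.24e-12). It rose with siMlx untreated by log2 0.23 (SE 0.07, adjusted p = 9.87e-03).

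The calls were counted by the E-box matches in the promoter windows, with no test of the difference. Of the 10 members with CACGTG 7 rose and none fell with DXR in siControl cells. Of the 23 with a window and no match 15 rose and 5 fell. Over all genes tested 28.1% rose and 28.6% fell in that comparison. With siMlx untreated, 1 of the 10 rose and 3 fell, and 2 of the 23 rose and 10 fell (24.9% of all genes rose and 23% fell). Of the members that fell most with siMlx, ARSB holds CACGTG in this window (chr5:78986101-78986130, minus strand), while LAMP2 had no window at hand and GM2A and PPT1 hold no match.
ARSB, 160 bases before the start: taattcaataagCACGTGactaaaggattt

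An siRNA can also lower transcripts whose 3′ UTR matches its seed, and the siRNA sequences are not used here. Words of 7 letters were therefore ranked by the standardized difference in log2 fold change between genes with and without the word, after a fit to UTR length. This used the 11669 tested genes that are not members and have an annotated 3′ UTR of at least 50 bases. The 3 first words with siMlx untreated were AATGAGA and ATGAGAA and CTGGTCA, and the first 2 overlap by 6 letters. Of the other genes that hold any of the 3, 37% fell, against 18% of those that hold none, a contrast that the choice of the words fixed. These shares are not adjusted for UTR length, and longer UTRs hold more words. Of the 45 members with an annotated 3′ UTR, 5 of the 8 with a word fell with siMlx, and 13 of the 37 without one. ARSB and LAMP2 held all 3 words, PPT1, LIPA and CTSB held 1, and GM2A, ACP2 and SCARB2 held none. HEXA, IDS and MANBA held a word and were not lower. With siMondoA the first words were TCCAGTA and ATCCAGT and CCAGTAT, and 1 of the 4 members with a word fell, NPC2, against 5 of the 41 without. The call for NPC2 was lost under upper-quartile scaling (-0.14, adjusted p = 0.0858) and without siControl untreated replicate 2 (-0.17) or siMondoA untreated replicate 3 (-0.17). The matches in ARSB, LAMP2 and PPT1 are shown with the words in capitals, and their part in the falls was not tested.
ARSB, 3′ UTR positions 1699 to 1706 of 3191: aaatgagtaAATGAGAAagtctcaca
ARSB, positions 2029 to 2035: caatattttCTGGTCActactaacc
ARSB, positions 2058 to 2064: ttgtattaaAATGAGActattggaa
LAMP2, 3′ UTR positions 68 to 74 of 2663: catgcaataCTGGTCAacttaaggt
LAMP2, positions 1778 to 1785: tcactagaaAATGAGAAaattgtctg
PPT1, 3′ UTR positions 936 to 942 of 2603: atgtgttccATGAGAAaaggattgt

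Several members share exonic bases with a neighbour on the other strand, so their counts are uncertain while the strand setting is not known. Besides PPT1, IDUA, HEXA and LIPA, these were CTSA with NEURL2 (1038 bases) and PLTP (200 bases), CLN3 with APOBR (567), ACP2 with NR1H3 (189), SGSH with CARD14 (153) and SLC26A11 (8), NPC2 with ISCA2 (103) and GALNS with TRAPPC2L (27). TRAPPC2L rose with siMlx untreated, as GALNS did, from a mean of 31.3 to 40.2 CPM (log2 0.36, adjusted p = 5.20e-04). NEURL2, APOBR, CARD14 and HEXA-AS1 each had a mean under 1 CPM in every group. PLTP was at 24.4 CPM untreated and 48.0 after DXR with siControl, and NR1H3 lay between 2.70 and 3.47 CPM. On the same strand, GLB1 shares 83 exonic bases with TMPPE, NPC2 72 with MIR4709 and MCOLN1 6 with PNPLA6. No strand setting would part these reads. In untreated siControl cells TMPPE had a mean of 3.38 CPM, PNPLA6 102 and MIR4709 0. Untreated, PNPLA6 fell with siMlx (log2 -0.18, adjusted p = 0.0298) and rose with siMondoA (log2 0.226, adjusted p = 0.00747).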

How the data were processed

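RNA of RPE-1 cells was sequenced in 18 libraries, 3 in each of 6 groups taken from the labels, with the TruSeq Stranded mRNA kit per the labels' protocols. The submitters' processing notes name bcl2fastq, TopHat2 2.1.1 and the build GRCh38. How reads were counted, on which gene models and with which strand rule is not given in the sources used. The authors deposited whole-number read counts per gene and RPKM for the same libraries, and the gene length implied by each RPKM was whole within 0.01 bases for 24845 of 24846 genes with a count.

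The counts were fitted with edgeR 4.0.16 (R 4.3.3). The filter filterByExpr, applied by group, left 13676 genes, libraries were scaled with TMM, and 1 mean per group was fitted over all 18 libraries. This left 12 residual degrees of freedom, and the common biological coefficient of variation was 7.42%. The two-sided quasi-likelihood test was adjusted by Benjamini-Hochberg over all genes tested in each of 11 comparisons, at 0.05. SE is the log2 fold change divided by the square root of F. Levels are CPM after TMM, or deposited RPKM where genes are compared. No label says whether libraries of a group came from different cultures, so the p-values cover the spread among libraries only, which may be technical.

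The members, the other gene lists and the tests were chosen with earlier results of these data known. Library values were given for the 4 members with the smallest p in each direction of the 5 main comparisons (each siRNA against siControl in each condition, and DXR with siControl), and for LAMP1, LAMP2, CD63, CTSB, CTSD, CTSL, GLB1, GAA, HEXA and MCOLN1. Of the other lists, genes were named from the 2 with the smallest p in each direction. Coordinates are GENCODE release 29 on GRCh38, and promoter windows are RefSeq, GRCh38.p14. No window was at hand for NAGLU, LAPTM4B, CTSB, CTSK, PSAP, HEXA, HGSNAT, MANBA, LGMN, ARSA, SGSH, LAMP2 and ASAH1. Alternatives were DESeq2 1.42.0, RLE and upper-quartile scaling, no low-count filter, the groups of a comparison fitted alone, a replicate block, and leaving out each library. The fit was tested on simulated data.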

Additional observations from a re-analysis of the deposited data

Results flagged for a closer look

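In 16 instances a member's response to DXR differed between an siRNA and siControl by the interaction test, as a difference of log2 fold changes (siRNA minus siControl, edgeR, adjusted p under 0.05). Any effect of the harvest day cannot be told apart from that of the drug in these values. With siMlx the response was larger for ARSB by 0.927, GM2A by 0.732, LAMP2 by 0.666, ARSA by 0.513, GAA by 0.509, CTSD by 0.483, GUSB by 0.402, SLC17A5 by 0.388, PPT1 by 0.383, CTSA by 0.319 and SMPD1 by 0.254. For GUSB this was a smaller fall, and for PPT1 the change with DXR was -0.46 with siControl and -0.08 with siMlx. With siMlx it was lower for LAPTM4B, at -0.413. With siMondoA it was larger for CTNS, at 0.392, and lower for HEXA at -0.446, SLC17A5 at -0.386 and IDS at -0.353. The values for ARSA, CTSA, CTSD, GAA and SMPD1 with siMlx did not pass the test in at least 1 alternative, and neither did that for CTNS.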

How the results depend on the processing

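No member reversed its call in any alternative. Calls kept in every alternative were 36 of 38 for DXR with siControl, 37 of 39 with siMlx and 28 of 30 with siMondoA. They were 16 of 24 and 9 of 15 for siMlx, untreated and after DXR, 11 of 19 and 5 of 9 for siMondoA, 18 of 23 and 14 of 22 for siMondoA against siMlx, and 7 of 12 and 3 of 4 for the interactions of siMlx and siMondoA. Under upper-quartile scaling the member median was 0.101 for siMlx after DXR and -0.0394 for siMondoA against siMlx after DXR. The medians over all genes tested under that scaling were 0.0456 and -0.0424 in the same order. With the groups of the comparison fitted alone, 2 members fell with DXR under siMlx. Without the low-count filter no member (0) had a positive siMondoA interaction. The negative siMlx interactions numbered 2 with DESeq2, without the filter, with groups fitted alone and with the replicate block. With the replicate block the negative siMondoA interactions numbered 5. The library names repeat the same end tags in each group, in the order of the replicate numbers. The labels give no meaning to these tags or to the replicate numbers. Of 45 same-numbered pairs, 21 had a correlation of deviations above 0.1 (range -0.102 to 0.33). The numbers were not used as pairs in the main fit, so its p-values come from a fit without the replicate block. The median was 0.0863 for same-numbered and -0.0497 for other pairs, and 14 of 18 libraries correlated best with their own number, a hint from the data that the numbers share something. Upper-quartile scaling turned the split of all genes in the siMondoA interaction from 798 higher and 586 lower to 655 and 788, and in siMlx after DXR from 1908 and 2221 to 2506 and 1953. The cause of these shifts was not tested.

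Leaving out 1 library at a time gave these ranges. After DXR, members higher with siMondoA numbered 2 to 6 (median -0.00578 to 0.0506), and with siMlx 3 to 6. The 8 members higher with siMlx after DXR in the main fit lie above that range. The median for DXR with siControl was 0.378 to 0.412, below the median of the main fit. For siMondoA against siMlx, members lower numbered 1 to 3 untreated (median 0.128 to 0.232) and 7 to 11 after DXR (median -0.0596 to 0.0275). Negative siMondoA interactions numbered 3 to 5. With siMlx, positive interactions numbered 6 to 14 and negative ones 1 to 2. Depth limits IDUA most, with 17 to 35 counts in untreated libraries.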
